A study of Mus musculus with 8 samples.

Results

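Fibroblast growth factors (FGFs), their receptors and hepatocyte growth factor were followed in stromal cells of the mouse small intestine. The 9 genes were Fgf1, Fgf2, Fgf7, Fgf9, Fgf10, Fgf18, Fgfr1, Fgfr2 and Hgf, taken by symbol from the 53801 genes of the deposited count table. Each symbol matched a single row, and all 9 passed the filter on low counts, which 16354 genes passed. The stromal cells were CD45-CD31-, which selects against haematopoietic and endothelial cells, though some of their marker RNA remained. They were sorted by flow cytometry on YFP, a yellow fluorescent protein, from mice that the labels call LTβRYFP, a name that points to the lymphotoxin β receptor. Each gate, YFP+ and YFP-, gave 4 libraries, and both gates come from LTβRYFP mice and share tissue and surface phenotype. The sources used here do not give the promoter or allele that drives YFP, the age or the number of animals. Total counts ran from 23272858 to 28688906 in YFP- and from 23404630 to 29829232 in YFP+ libraries.

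The labels disagree on the gates. The title of each of the 8 samples gives the opposite YFP sign to its description and genotype, and groups here follow the description, which matches the genotype and the count columns' names. If the titles were the right ones, each direction given here would be the opposite. Libraries with the same replicate number in the 2 gates deviated together, so they were compared as pairs. The labels do not tell whether the libraries of a gate stem from different mice, so the tests weigh differences against the spread of these libraries alone, part of which may be technical.

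FGFs are secreted ligands that bind receptor tyrosine kinases together with heparan sulfate on the cell surface. Fgf7 and Fgf10 act mainly on the epithelial splice form of Fgfr2, Fgf9 and Fgf18 favour mesenchymal receptor forms, and Fgf1 and Fgf2 bind broadly. Hgf is a separate mesenchymal ligand, activated by proteolysis, whose receptor Met lies on epithelial cells. In the gut, stromal cells are a source of these factors for the epithelium. Counts per gene do not separate the splice forms of a receptor.

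Among the 9 genes, Fgfr2, Fgf10 and Hgf were higher in YFP+ than in YFP- libraries, and Fgf7 and Fgf18 were lower. Fgf10 was 1.55-fold higher, Fgfr2 1.36-fold and Hgf 1.33-fold, while Fgf7 fell to 0.655 and Fgf18 to 0.525 of the YFP- level. Fgf1, Fgf2, Fgf9 and Fgfr1 did not pass the test. These calls came from edgeR's quasi-likelihood test, with a block for the replicate number, at an adjusted p under 0.05. With that test 11.5% of all tested genes were called, 3.65% as higher and 7.85% as lower in YFP+. Without the block only Fgfr2 passed among the 9 genes, and 4.26% of all tested genes did, 0.917% as higher and 3.34% as lower. The median log2 fold change of all tested genes was 0.007, and the 10th and 90th percentiles were -0.62 and 0.34.

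**Figure D1:**
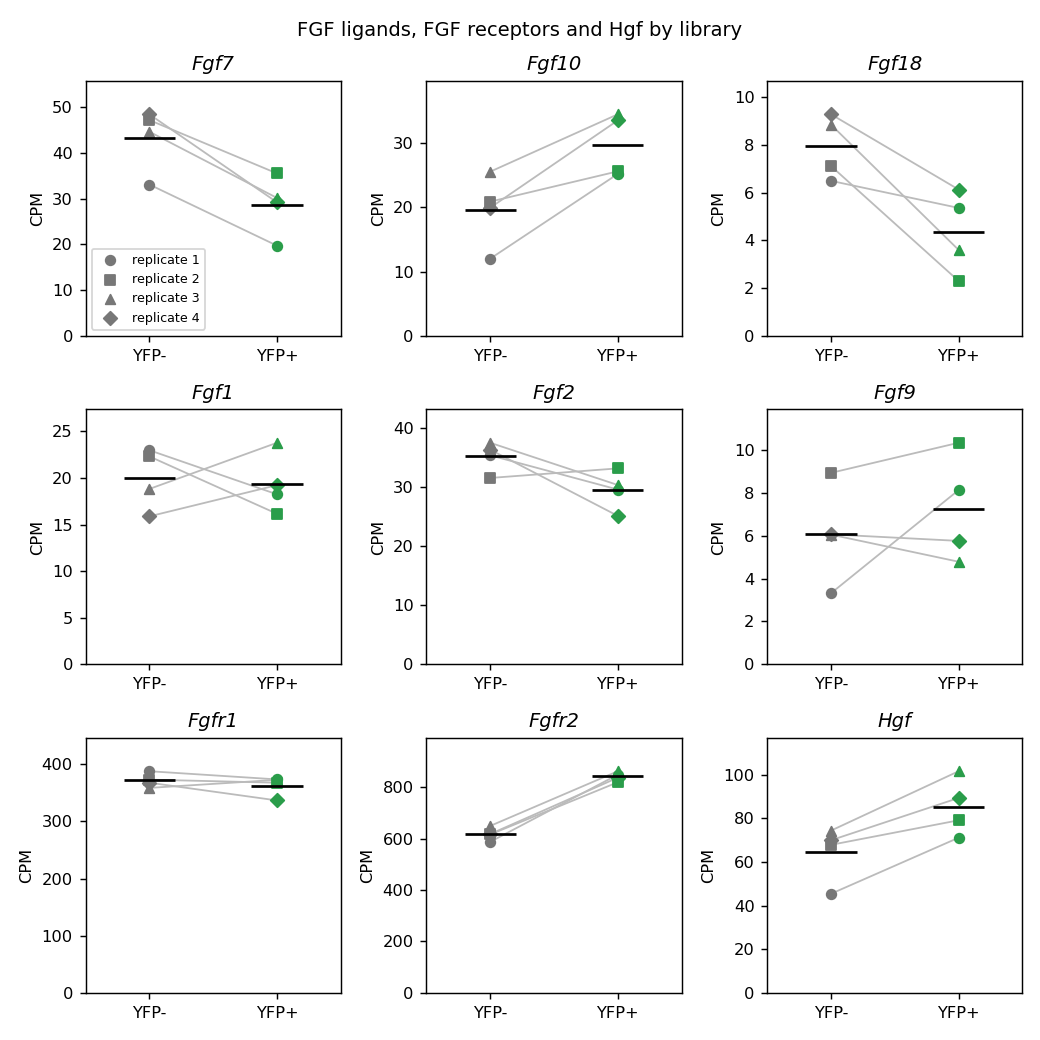
Level of each of the 9 genes in every library, in CPM (read counts scaled to the size of each library) on a linear axis from 0, with YFP- libraries in grey, YFP+ in green, a marker shape per replicate number, grey lines between equal numbers and a black bar at each group's mean. Fgfr2 is the gene with the clearest gap between the groups, at 587 to 649 CPM in YFP- and 819 to 862 CPM in YFP+, while the lines of Fgf7 all fall and those of Fgf10 and Hgf all rise.

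Fgf7, also known as keratinocyte growth factor, is a paracrine ligand for epithelium. It was measured at 33.1, 47.2, 44.6 and 48.5 CPM in YFP- replicates 1 to 4 and at 19.7, 35.5, 30.2 and 29.2 CPM in YFP+ replicates 1 to 4. Replicate 1 was the lowest in both gates, the groups overlapped, and YFP+ was below YFP- in each of the 4 pairs. The log2 fold change was -0.61 (SE 0.092, 95% interval -0.80 to -0.42, edgeR adjusted p = 3.16e-05). The call was lost without the block (edgeR adjusted p = 0.0684). The gene lies at chr2:126034658-126091185 on the plus strand (GRCm38, GENCODE M21) and shares no exon base with another gene.

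Fgf10, a close relative of Fgf7 with the same main receptor form, moved in the opposite direction. Its level was 12.02, 20.9, 25.6 and 19.9 CPM in YFP- and 25.2, 25.6, 34.5 and 33.5 CPM in YFP+ replicates 1 to 4. It was higher in YFP+ in each of the 4 pairs, and the groups overlapped only in that YFP- replicate 3 lay just above YFP+ replicate 1. The pairs differed by 1.07, 0.29, 0.43 and 0.75 on the log2 scale, so the size of the difference varied more than for Fgf7. The fitted log2 fold change was 0.63 (SE 0.117, 95% interval 0.39 to 0.87, edgeR adjusted p = 0.000452), and the call was lost without the block (edgeR adjusted p = 0.143). Fgf10 lies at chr13:118669791-118792115 on the plus strand, and 123 of its 4601 exon bases overlap Gm16263 on the other strand.

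Hgf, the ligand of Met, followed the direction of Fgf10. It was at 45.4, 67.8, 74.3 and 69.9 CPM in YFP- and at 71.1, 79.0, 101.5 and 89.3 CPM in YFP+ replicates 1 to 4. Replicate 1 was again lowest in both gates, and the groups overlapped, with all 4 pairs higher in YFP+. The log2 fold change was 0.42 (SE 0.071, 95% interval 0.27 to 0.56, edgeR adjusted p = 0.00016), and without the block the adjusted p was 0.209. Over the 8 libraries, Hgf was the gene most like Fgf10 among 8755 protein-coding genes of at least 10 CPM (Pearson r of log2 CPM 0.975). Hgf lies at chr5:16553495-16620152 on the plus strand, and 484 of its 7186 exon bases are shared with Gm43489 on the same strand, so a part of its reads cannot be assigned to it alone.

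The sequences before the start sites of Fgf7, Fgf10 and Hgf are shown because Fgf10 and Hgf moved together and Fgf7 moved against them. Each is the 250 bases upstream of a RefSeq start, 5′ to 3′ on the plus strand of GRCm38.p6, with motif matches in capitals. In Fgf10 the first capitals are a GC box on the minus strand and the last a forkhead motif on the minus strand. In Hgf they are a forkhead motif on the plus strand, and in Fgf7 a CCAAT box. The Fgf10 start is RefSeq's and lies inside the longer GENCODE gene.
Fgf7, chr2:126034408-126034657: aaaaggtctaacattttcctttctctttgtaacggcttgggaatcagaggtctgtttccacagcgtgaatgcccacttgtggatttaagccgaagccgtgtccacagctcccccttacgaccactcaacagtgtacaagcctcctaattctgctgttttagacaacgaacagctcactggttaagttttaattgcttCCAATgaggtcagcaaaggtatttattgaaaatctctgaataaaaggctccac
Fgf10, chr13:118714449-118714698: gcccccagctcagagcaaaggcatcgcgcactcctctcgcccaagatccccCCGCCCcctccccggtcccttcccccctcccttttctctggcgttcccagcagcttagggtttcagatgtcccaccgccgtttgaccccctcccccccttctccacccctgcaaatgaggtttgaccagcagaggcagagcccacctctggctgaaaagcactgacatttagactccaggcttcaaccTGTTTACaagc
Hgf, chr5:16553245-16553494: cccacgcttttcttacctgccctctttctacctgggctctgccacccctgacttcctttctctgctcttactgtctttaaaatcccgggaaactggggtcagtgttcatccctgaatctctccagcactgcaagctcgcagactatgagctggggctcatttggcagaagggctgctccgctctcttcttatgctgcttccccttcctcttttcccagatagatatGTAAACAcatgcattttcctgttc

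The 6 short motifs below, picked after the sequences had been seen, were searched on both strands of these windows. The forkhead motif GTAAACA was present 11 bases before the start of Fgf10 and 24 bases before that of Hgf, measured from the motif's first base in the window, and in 3.17% of 32851 RefSeq windows of the same length. CCAAT, found in Fgf7, was present in 33.8% of windows, and the GC box GGGCGG, found in Fgf10, Fgf2 and Fgf18, in 32.7%. TATAAA (12.4% of windows), the AP-1 motif TGANTCA (6.75%) and an NF-κB motif (1.41%) matched none of the 8 windows of the 7 genes with an entry (all but Fgf1 and Fgfr1). A second start listed for Hgf, and those of Fgf9 and Fgfr2, held none of the 6 motifs. The GC content was 43.6% for Fgf7, 61.2% for Fgf10 and 50.8% for Hgf, beside a median of 52.4% over all windows. These matches describe letters in a window and are not binding sites.

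Fgf18, a ligand that favours mesenchymal receptor forms, had few counts. It was at 6.497, 7.12, 8.85 and 9.28 CPM in YFP- and at 5.36, 2.30, 3.60 and 6.13 CPM in YFP+ replicates 1 to 4, where the lowest library held 56 counts. The groups did not overlap, and all 4 pairs were lower in YFP+. Their differences ranged from -0.28 in pair 1 to -1.63 in pair 2 on the log2 scale. The fitted log2 fold change was -0.93 (SE 0.229, 95% interval -1.40 to -0.46, edgeR adjusted p = 0.00694). The call was lost without the block (edgeR adjusted p = 0.0920), without replicate 2 (-0.71, edgeR adjusted p = 0.0579) and without replicate 3 (-0.81, edgeR adjusted p = 0.0896). Fgf18 lies at chr11:33117430-33147400 on the minus strand and shares no exon base with another gene.

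The remaining ligands did not pass the test. Fgf2, basic FGF, was at 35.3, 31.5, 37.4 and 36.3 CPM in YFP- and at 29.5, 33.1, 30.3 and 25.1 CPM in YFP+ replicates 1 to 4. It was lower in YFP+ in 3 of 4 pairs and higher in pair 2, and its log2 fold change was -0.26 (SE 0.101, 95% interval -0.47 to -0.05, edgeR adjusted p = 0.112). Without replicate 2 it was -0.36 and passed (edgeR adjusted p = 0.0328), so this call depends on that pair. Of the 6782 exon bases of Fgf2 (chr3:37348346-37410108, plus strand), 895 overlap Nudt6 on the other strand or Gm43439 on the same strand, and the sources used here do not state how the counting treated strand.

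Fgf1, acidic FGF, was at 23.0, 22.3, 18.8 and 15.9 CPM in YFP- and at 18.3, 16.2, 23.8 and 19.2 CPM in YFP+. The first 2 pairs were lower and the other two higher in YFP+, and the log2 fold change was -0.04 (95% interval -0.32 to 0.23, edgeR adjusted p = 0.889). Fgf9 was at 3.31, 8.92, 6.04 and 6.06 CPM in YFP- and at 8.12, 10.3, 4.78 and 5.75 CPM in YFP+. Its log2 fold change was 0.26 with a 95% interval from -0.22 to 0.73 (edgeR adjusted p = 0.563). Replicate 1 alone set the sign, since its pair differed by 1.29 and the value without it was -0.06 (edgeR adjusted p = 0.924). For Fgf9 a change of up to 1.66-fold upward or down to 0.859 of the YFP- level lies inside the interval. Fgf1 lies at chr18:38838673-38929472 on the minus strand and Fgf9 at chr14:58070547-58112720 on the plus strand, and neither shares an exon base with another gene.

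**Figure D2:**
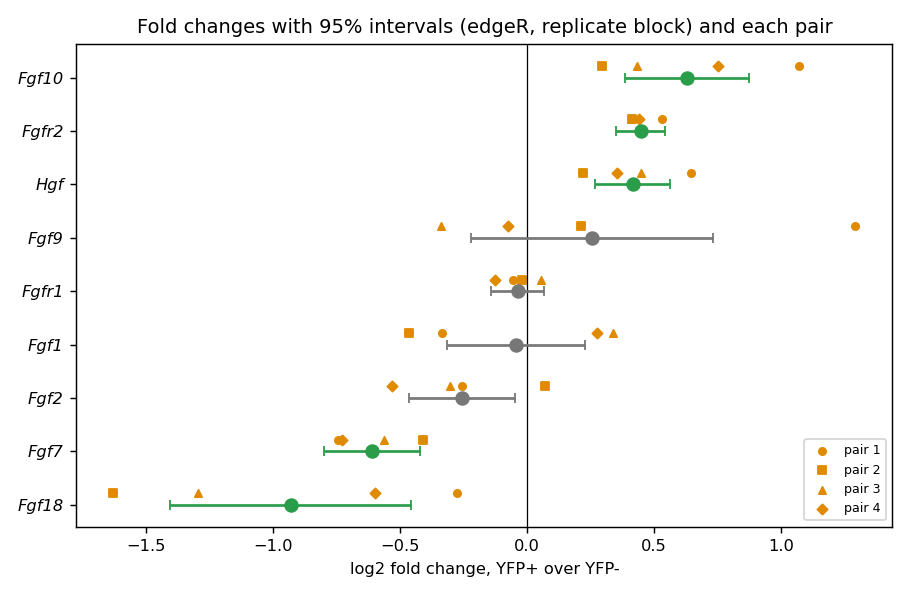
Log2 fold change of YFP+ over YFP- for each of the 9 genes from edgeR with the replicate block (large circles, green where the adjusted p was under 0.05) with its 95% interval (bars) and the difference within each of the 4 pairs (small orange markers). The 4 pairs of Fgfr2 lie between 0.41 and 0.53, whereas those of Fgf9 run from -0.34 to 1.29 and those of Fgf18 from -1.63 to -0.28.

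Of the receptors, Fgfr2 rose and Fgfr1 did not pass the test. Fgfr2, whose splice forms serve epithelial and mesenchymal ligands, was at 587, 616, 649 and 618 CPM in YFP- and at 849, 819, 862 and 837 CPM in YFP+ replicates 1 to 4. The groups did not overlap, and the lowest YFP+ library lay above the highest YFP- library. The log2 fold change was 0.45 (SE 0.047, 95% interval 0.35 to 0.54, edgeR adjusted p = 1.48e-07), and it also passed without the block (edgeR adjusted p = 0.00166). As a linear ratio this is 1.36-fold, with a 95% interval of 1.28 to 1.46. Over the 12 alternative settings its log2 fold change stayed between 0.42 and 0.47. Fgfr2 lies at chr7:130162451-133123350 on the minus strand, and 314 of its 10328 exon bases are shared with Ctbp2 on the same strand. This is the GENCODE span, and RefSeq's start of Fgfr2, next to chr7:130266809, lies far inside it.

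Fgfr1, the receptor most typical of mesenchyme, was at 388, 373, 359 and 368 CPM in YFP- and at 374, 368, 373 and 337 CPM in YFP+ replicates 1 to 4. The groups overlapped, and YFP+ replicate 4 was the lowest library. The log2 fold change was -0.04 (SE 0.051, 95% interval -0.14 to 0.07, edgeR adjusted p = 0.736), so a rise of the size seen for Fgfr2 lies outside its interval. Fgfr1 lies at chr8:25513654-25575718 on the plus strand, and 164 of its 9875 exon bases overlap Gm16159 on the other strand.

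The authors' deposited table gives log2 fold changes of 0.46 for Fgfr2, 0.64 for Fgf10, 0.42 for Hgf, -0.60 for Fgf7 and -0.93 for Fgf18. Its adjusted p-values were 7.04e-20, 0.00026, 4.5e-05, 8.6e-07 and 0.0100 for these genes in the authors' deposited table. For Fgf1, Fgf2, Fgf9 and Fgfr1 the adjusted p-values of the authors' deposited table were 0.945, 0.234, 0.686 and 0.846. The authors' deposited table and the blocked edgeR test thus called the same 5 of the 9 genes at 0.05.

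To set the genes side by side, CPM were divided by the length of each gene's annotated exons. Fgfr2 stood highest, at 81.5 ± 1.76 CPM per kilobase in YFP+ and 59.8 ± 2.45 in YFP- (SD, n = 4), followed by Fgfr1 at 36.7 ± 1.77 and 37.7 ± 1.24. Among the ligands, Hgf led in YFP+ (11.9 ± 1.83 CPM per kilobase) and Fgf7 in YFP- (13.3 ± 2.16). In YFP+ Fgf7 was second at 8.82 ± 2.02, and in YFP- Hgf was second at 8.95 ± 1.80. Fgf10 was at 6.46 ± 1.08 in YFP+ and 4.26 ± 1.22 in YFP-, and Fgf18 at 3.67 ± 1.46 and 6.69 ± 1.13 CPM per kilobase. Fgf2 (4.35 ± 0.490 and 5.18 ± 0.380) and Fgf1 (3.54 ± 0.589 and 3.66 ± 0.603) lay within the same range, and Fgf9 was lowest at 1.56 ± 0.535 and 1.31 ± 0.492 CPM per kilobase. Neighbours in the order often overlapped over libraries. In YFP+ only Fgfr2 and Fgfr1, Fgfr1 and Hgf, Fgf10 and Fgf2, and Fgf1 and Fgf9 were neighbours without overlap, and in YFP- only Fgfr2 and Fgfr1, Fgfr1 and Fgf7, and Fgf1 and Fgf9. With the longest transcript as the length, Hgf ranked above Fgf7 in both gates.

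**Figure D3:**
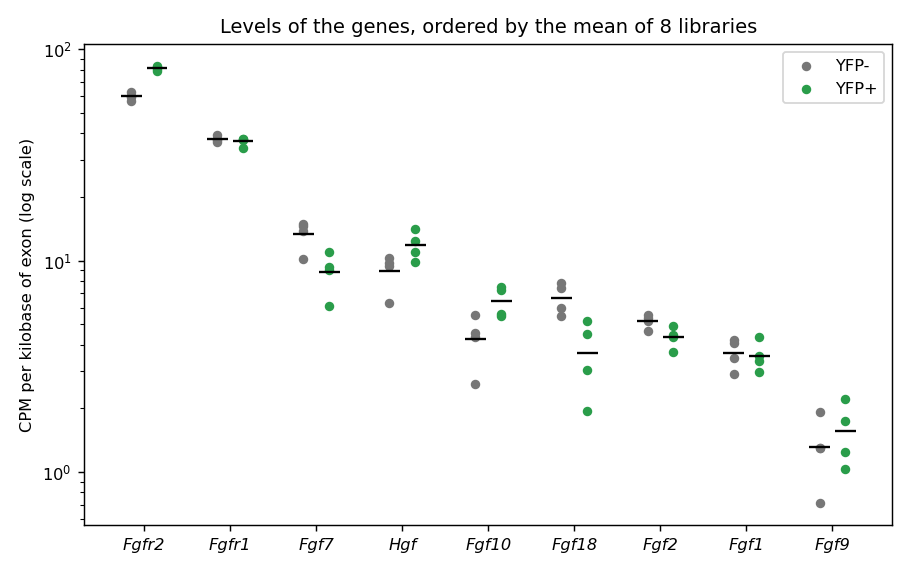
Level of the 9 genes in CPM per kilobase of annotated exon on a log axis, ordered by the mean of the 8 libraries, with YFP- libraries in grey, YFP+ in green and a black bar at each group's mean. Fgfr2 and Fgfr1 lie at 34.1 CPM per kilobase or more in every library, whereas Fgf9 stays at or below 2.22.

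Ratios of genes within a library put the opposite moves on 1 scale. They were chosen after the values above had been seen and carry no test. Fgf10 over Fgf7, per kilobase, was 0.509 to 0.902 in YFP+ and 0.256 to 0.404 in YFP- libraries. Hgf over Fgf7 was 1.01 to 1.63 in YFP+ and 0.620 to 0.752 in YFP-. Fgfr2 over Fgfr1 was 2.13 to 2.38 in YFP+ and 1.45 to 1.73 in YFP-, and Fgf10 over Fgf18 was 1.21 to 2.87 and 0.477 to 0.757. In none of these ratios did the libraries of the gates overlap, whereas Fgf7, Fgf10 and Hgf overlapped as single genes. Each numerator had been called higher in YFP+, and each denominator lower, except Fgfr1, which was not called. The separation thus follows in large part from the choice of genes and adds no support to the calls.

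**Figure D4:**
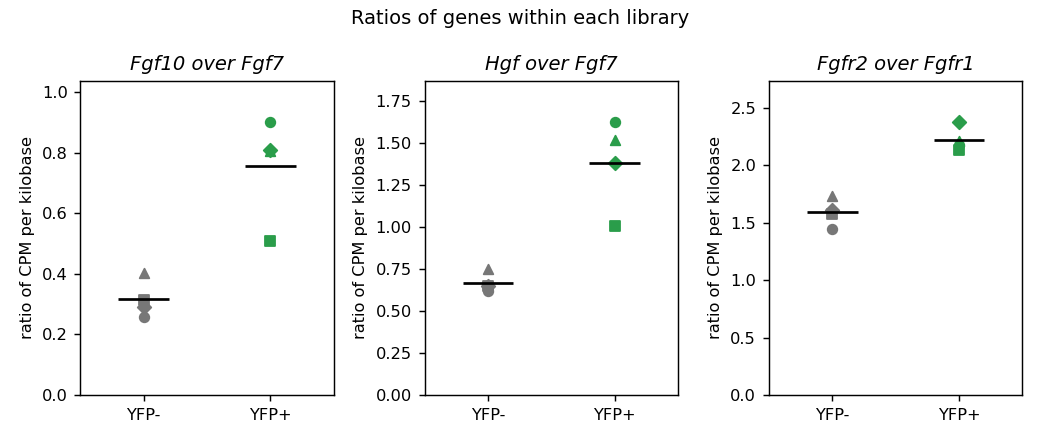
Ratio of Fgf10 to Fgf7, Hgf to Fgf7 and Fgfr2 to Fgfr1 in each library, from CPM per kilobase on linear axes from 0, with YFP- in grey, YFP+ in green, a marker shape per replicate number and a black bar at each group's mean. In each panel the 4 YFP+ libraries lie above the 4 YFP- libraries, with Fgf10 to Fgf7 at 0.509 to 0.902 against 0.256 to 0.404.

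The genes whose log2 CPM were most like those of each called gene over the 8 libraries were listed as a description. The libraries share gates and replicate numbers, and values of r are not independent of either. For Fgfr2 they were Fhl2 (r = 0.994), a LIM-domain protein, and Adamdec1 (r = 0.992), a secreted metalloprotease-like protein at a mean of 4757 CPM, both higher in YFP+. For Hgf they were Tcim (0.988) and Sumf1 (0.982), and for Fgf10, after Hgf, Asxl3 (0.968). For Fgf7 they were Rhoq and Cntnap2 (both 0.968), and for Fgf18 Sh2b2 (0.985) and Ube2e1 (0.982). Among the 9 genes themselves, the correlation was 0.80 between Fgf10 and Fgfr2, 0.75 between Hgf and Fgfr2, and -0.72 between Fgf7 and Fgfr2. Between Fgf7 and Fgf10 it was -0.27, and both were lowest in replicate 1 of each gate.

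Few of the further secreted FGFs were measurable in these cells. Of 12 further secreted FGFs, 2 passed the filter, and 0 were called by edgeR, DESeq2 or limma-voom or had an unadjusted edgeR p under 0.05. Fgf23, the more abundant, was at 0.857 to 2.84 CPM in YFP+ and 0.663 to 2.43 CPM in YFP-, and its log2 fold change was 0.04 (edgeR adjusted p = 0.970). Of the 4 intracellular FGF homologous factors, which do not act as secreted ligands, 2 were lower, beside 7.85% of all tested genes. The median log2 fold change of the 4 was -0.67. Fgf12 fell by 1.01 (edgeR adjusted p = 0.0184, 0.0498 without the block) and Fgf13 by 0.60 (0.00663, and 0.130 without the block) on the log2 scale. Fgf12 lost its call without replicate 1 (-0.99, edgeR adjusted p = 0.0800), 2 (-1.001, 0.0566) or 3 (-0.998, 0.0851), and Fgf13 without replicate 2 (-0.46, 0.0783) or 4 (-0.58, 0.0524). Markers of enteric glia were lower in YFP+ as well (9 of 10, summed level 9.05 to 11.7 CPM against 127 to 202 in YFP-), and so were 2 of 4 tested neuronal markers (6.24 to 7.36 against 5.22 to 22.6 CPM). Their part in the levels of Fgf12 and Fgf13 was not tested.

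Of 5 other FGF receptors and co-receptors, 4 were tested and 1 was higher, beside 3.65% of all tested genes. Fgfr4, a receptor best known from liver bile acid control, was at 6.79 to 9.60 CPM in YFP+ and 2.79 to 5.79 CPM in YFP-. All 4 pairs were higher in YFP+, the groups did not overlap, and the log2 fold change was 0.95 (SE 0.202, edgeR adjusted p = 0.00174, 0.0313 without the block). Fgfr3, named after its values were seen, was at 5.53 ± 2.03 CPM in YFP+ and 7.31 ± 2.81 in YFP- (SD, n = 4), and the log2 fold change was -0.40 (edgeR adjusted p = 0.276).

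Downstream of the receptors, 1 of 8 adaptors was called, near the share of 11.5% over all tested genes. Gab1, a docking protein, fell by 0.25 on the log2 scale (edgeR adjusted p = 0.0172, and 0.220 without the block), and the call was lost without replicate 2 (-0.15, edgeR adjusted p = 0.211) or 3 (-0.26, 0.0904). The median of the 8 was -0.03. Of 12 tested feedback and target genes, 2 were higher and 2 lower, with a median of -0.05, and Spry3 was listed at 0 in all libraries. Over all tested genes, 3.65% were higher and 7.85% lower. Spry1, a feedback inhibitor of receptor tyrosine kinases, rose by 0.44 (edgeR adjusted p = 7.18e-05, 0.0468 without the block). Il17rd, also called Sef, rose by 0.21 (edgeR adjusted p = 0.0247, and 0.265 without the block), and its call was lost without replicate 1, 3 or 4 (log2 fold changes of 0.20 to 0.21, edgeR adjusted p from 0.106 to 0.140). Dusp4 and Dusp5, MAP kinase phosphatases, fell by 0.57 (edgeR adjusted p = 0.00741, and 0.0984 without the block) and 0.46 (0.00821, and 0.383 without the block). Both lost their calls without replicate 3 (-0.52, edgeR adjusted p = 0.0701, and -0.40, 0.0893). Beside these, 8 of 8 early-response genes such as Fos and Egr1, which rise with cell handling, were lower in YFP+ (5 without the block, summed level 6901 to 7523 CPM against 8928 to 10701). Their part in the result was not tested.

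Extracellular modulators of FGF, among them heparan sulfate proteoglycans and the enzymes that build the sugar, changed in both directions. Of 24 tested, 3 were higher and 8 lower (1 and 6 without the block), with a median log2 fold change of 0.03. The shares over all tested genes were 3.65% and 7.85% (0.917% and 3.34% without the block). Hs6st1, a heparan sulfate 6-O-sulfotransferase, rose by 0.44 (edgeR adjusted p = 3.64e-05), Gpc1, a glypican, by 0.36 (0.000155, and 0.0957 without the block), and Sdc1, a syndecan, by 0.38 (0.0146, and 0.0807 without the block). The call of Sdc1 was lost without replicate 2 (0.31, edgeR adjusted p = 0.102). Flrt3 and Flrt2, membrane proteins that bind FGF receptors, fell by 1.08 (edgeR adjusted p = 2.94e-07) and 0.88 (3.48e-07) on the log2 scale. Flrt2 was at 25.1 to 41.4 CPM in YFP+ and 50.5 to 62.2 CPM in YFP-. Sdc4 fell by 0.47 (edgeR adjusted p = 9.68e-07) and Gpc3 by 0.43 (2.07e-05). Named after its value was seen, the third FLRT gene, Flrt1, fell by 2.08 (edgeR adjusted p = 0.000205) from a low level of 2.92 to 5.44 CPM in YFP-. Hs2st1, a 2-O-sulfotransferase likewise named afterwards, fell by 0.35 (edgeR adjusted p = 0.000345), against the direction of Hs6st1.

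Of the 10 tested genes of the Hgf receptor and of Hgf activation, 2 were lower, with and without the block (3 with DESeq2). Over all tested genes, 7.85% were lower (3.34% without the block). The median log2 fold change of the 10 was -0.50. Plat, tissue plasminogen activator, was at 48.5 to 74.1 CPM in YFP+ and 85.4 to 111.7 CPM in YFP-, and fell by 0.72 (edgeR adjusted p = 5.48e-08). Plat fell while Hgf rose, so the ligand and this protease gene moved in opposite directions. Met, named after its values were seen, was at 7.30 to 12.5 CPM in YFP+ and 2.98 to 23.4 CPM in YFP-, and its log2 fold change of 0.32 had an SE of 0.742 (edgeR adjusted p = 0.864). Without replicate 1 it was 0.99 and passed (edgeR adjusted p = 0.00614), and without replicate 3 it was -0.13 (edgeR adjusted p = 0.959), so neither its size nor its sign was stable. Several genes of this list are typical of epithelium, of whose 12 tested markers 6 were lower (5 without the block, 8 with DESeq2, 9 with limma-voom, summed level 20.9 to 29.0 CPM in YFP+ and 46.4 to 95.8 CPM in YFP-), and their part in the result was not tested.

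**Figure D5:**
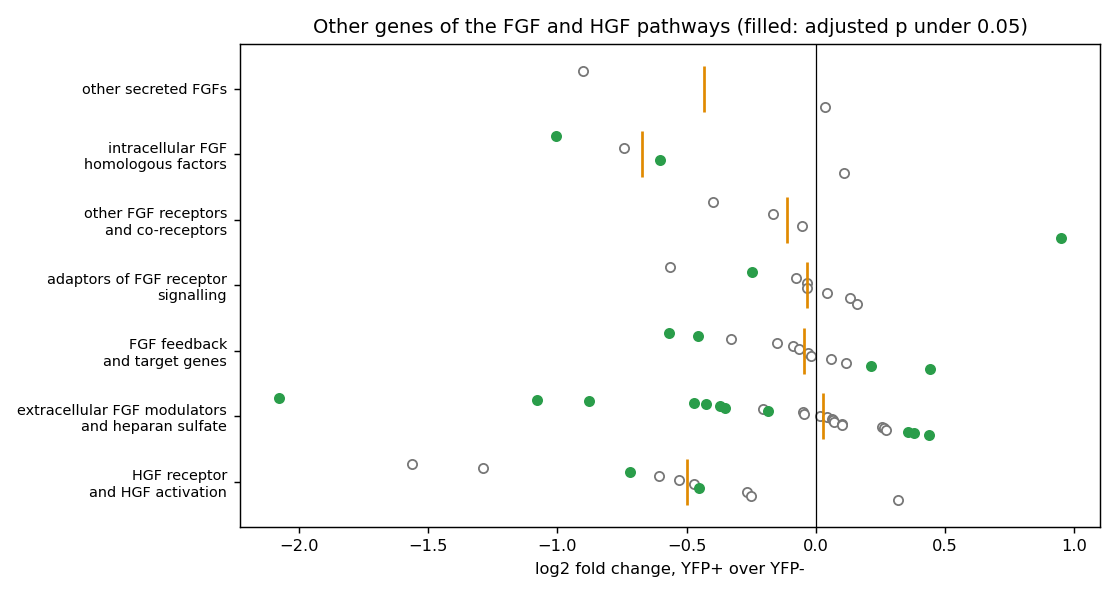
Log2 fold change of YFP+ over YFP- for each tested gene of 7 lists of the FGF and Hgf pathways, with filled green points where edgeR with the replicate block gave an adjusted p under 0.05, open grey points otherwise, and an orange bar at each list's median. The extracellular modulators hold called genes on both sides, 3 higher and 8 lower, and the list of Hgf receptor and activation lies mostly left of 0, with a median of -0.50.

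Markers of stromal subsets and other cells differed between the gates as well. Their counts stand beside 3.65% higher and 7.85% lower over all tested genes (0.917% and 3.34% without the block). In bulk libraries fewer cells of a type and less RNA per cell cannot be told apart. Smooth muscle and myofibroblast markers (Myh11 and Acta2 the most abundant) were higher in YFP+ for 7 of 9 (2 without the block, where neither Myh11 nor Acta2 passed), at a summed level of 406 to 930 CPM against 231 to 499 in YFP-. For subepithelial fibroblasts with high Pdgfra (Tnc, Pdgfra), 5 of 12 were higher and 1 lower, or 3 and 0 without the block. Their summed level was 2730 to 3283 against 2424 to 2905 CPM. Tnc was among the higher, and Pdgfra was not called (log2 fold change -0.03, edgeR adjusted p = 0.758). Foxl1 was listed at 0 in all libraries. CD81+ crypt-base markers (C3, Sfrp1) had 5 of 8 lower and 1 higher (5 and 0 without the block, 7785 to 8821 against 9291 to 12096 CPM). C3, which made up most of that sum, was lower, and Sfrp1 was not called (edgeR adjusted p = 0.455). Cd81 (log2 fold change -0.97, edgeR adjusted p = 1.07e-09), Grem1 (-0.62, 1.84e-05), Rspo3 (-0.67, 7.62e-06) and Ackr4 (-0.74, 3.95e-08) were lower too. Thbd was the higher gene (0.23, 0.00857). Adventitial markers (Col15a1, Dpt) had 3 of 7 lower and 1 higher (1 and 0 without the block, 2506 to 2794 against 2349 to 2777 CPM). Col15a1 was the higher gene and Dpt was not called, and these genes made up most of that sum. The lower genes were Pi16 (log2 fold change -1.46, edgeR adjusted p = 1.74e-08), Dpp4 (-1.41, 0.0112) and Cd34 (-0.22, 0.00498). Without the block only Pi16 passed. For pericytes (Rgs5, Pdgfrb) 2 of 7 were higher and 1 lower (1 and 1 without the block, 1509 to 1714 against 1346 to 1475 CPM). Pdgfrb was among the higher, and Rgs5 was not called (edgeR adjusted p = 0.277). For interstitial cells of Cajal (Etv1, Gjc1) 1 of 4 was higher (0 with DESeq2 or without the block, 76.4 to 89.5 against 57.8 to 84.6 CPM).

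Enteric glia markers (Cdh19, Kcna1) were lower in YFP+ for 9 of 10, with and without the block, at the summed levels given above. Neuronal markers (Nos1, Ret) had 2 of 4 lower (1 without the block), with Tubb3 listed at 0. Neither Nos1 (edgeR adjusted p = 0.778) nor Ret (0.763) was called. Endothelial markers (Tek, Plvap) had 3 of 9 lower (1 without the block, 42.9 to 56.0 against 62.0 to 91.8 CPM), and haematopoietic ones (Igha, Jchain) 0 of 6 called by edgeR, DESeq2 or limma-voom or at an unadjusted p under 0.05, at 40.4 to 323 against 74.9 to 278 CPM. Of the genes for the 2 gated surface proteins, Ptprc (CD45) had a mean of 2.29 CPM in YFP+ and 2.38 CPM in YFP-, and Pecam1 (CD31) 4.66 and 7.46 CPM. Mesothelial markers (Upk3b, Wt1) summed to 0.557 to 1.42 against 1.81 to 2.68 CPM, and the 1 tested passed with none of these tools. The epithelial markers above were led by Lgals4 and Pigr. Lgals4, at means of 15.4 CPM in YFP+ and 17.6 CPM in YFP-, made up most of the YFP+ sum and was not called (edgeR adjusted p = 0.346). Pigr was lower (log2 fold change -2.94, edgeR adjusted p = 0.0034). Mitochondrially encoded genes took 4.13% to 4.86% of counts in YFP+ and 5.20% to 7.38% in YFP-. The part of these cells in the levels of Fgf7, Fgf10, Fgf18, Fgfr2, Hgf and the called pathway genes was not tested.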

How the data were processed

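RNA from 8 libraries, 4 per gate, was analysed. Per the labels' protocols, a low-input stranded kit for total RNA was used, with sequencing on Illumina's NextSeq. The submitters' processing notes name cutadapt 3.4, STAR 2.7.3a, featureCounts 2.0.1, DESeq2 and the build GRCm38 (mm10). The sources used here give neither the strand setting nor the DESeq2 version. In the authors' deposited table, values per library are raw counts of reads per gene, and the authors' log2 fold changes and adjusted p-values stand beside them. The deposited normalised columns were not used.

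Counts were fitted in R 4.3.3 with edgeR 4.0.16 (TMM scaling, filterByExpr, robust quasi-likelihood F test), with a block for the replicate number and Benjamini-Hochberg adjustment over 16354 genes at 0.05. CPM use TMM-scaled totals. Of 53801 identifiers, 53706 were in GENCODE M21, and 23010 had no count. The pairing rests on the data and on the rule for these genes. Over 5200 genes, deviations from group means correlated at 0.601, 0.636, 0.381 and 0.575 between libraries of equal number, and at -0.425 to 0.05 otherwise. A DESeq2 1.42.0 fit with the block matched the deposited log2 fold changes to within 0.0005. No 2 libraries of a gate agreed within sampling noise, and each counts as 1 replicate. On simulated data the share of false calls lay above the nominal threshold, so adjusted p-values near it are less certain than they read, and the criterion of that check was changed after its first outcome had been seen. Alternatives were DESeq2, limma-voom (limma 3.58.1), other scalings and filters, no block, and each pair left out.

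The 9 genes and all lists were chosen with earlier results of these data known. Named genes are the 9, up to 4 called genes per direction of each pathway list by smallest adjusted p (or the most abundant tested one), the 2 most abundant of each marker list, and the 2 most similar genes of each called one. Of the genes this rule names, 1 is not reported here. Sequences are RefSeq's.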

Additional observations from a re-analysis of the deposited data

Results flagged for a closer look

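Of 18 sets of 4 libraries (9 genes in 2 gates), 1 held a library far from the others: Fgfr1 in YFP+ replicate 4, at 336.76 CPM beside 368 to 374 CPM in the other YFP+ libraries. Its gap to the next library took 0.844 of the range of the set, above Dixon's 95% critical value, and chance alone gives about 0.9 such sets among 18.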

How the results depend on the processing

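Fgfr2 kept its direction and its call under all 12 alternatives, and Fgfr1 was called under none of them. Fitting without the replicate block left 1 of the 9 genes higher and 0 lower, and 150 genes higher and 547 lower over the whole table, beside 597 and 1283 with it. Without the block the log2 fold changes were -0.598 for Fgf7, 0.6 for Fgf10, -0.865 for Fgf18 and 0.405 for Hgf, none past the threshold, while Met turned to -0.014. Leaving out each pair in turn gave 1 to 2 lower genes among the 9 (1 without replicate 3). Without replicate 2 the count of 2 held Fgf7 and Fgf2 in place of Fgf18. Over all genes it gave 331 to 500 higher and 851 to 1126 lower (both lowest without replicate 3). The log2 fold change then ran from -1.153 to -0.711 for Fgf18, from -0.356 to -0.161 for Fgf2, from -0.174 to 0.104 for Fgf1 and from -0.061 to 0.453 for Fgf9. Fgf1 was above 0 without replicate 1 (0.054) or 2 (0.104), and Fgf9 below 0 without replicate 1. Fgf23 ran from -0.077 (without replicate 4) to 0.226 and was -0.051 without replicate 1, and Met ran from -0.133 (without replicate 3) to 0.987. The cause of these shifts was not tested. With the longest transcript as length, mean levels were 4.94 CPM per kilobase for Fgf1, 5.41 for Fgf2, 72.9 for Fgfr1, 164.8 for Fgfr2 and 21.6 for Hgf, since that length is shorter. Other scalings, filters and tools changed no call of the 9 genes. Depth limits Fgf18 and Fgf9 most, with 56 to 256 counts per library.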
